A study of Rattus norvegicus with 12 samples.

Results

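DNA methylation was compared between F3 generation control and vinclozolin lineage rats over wide stretches of the genome in ventral prostate stromal cells. Stromal cells surround the glands of the prostate, make its extracellular matrix, and exchange growth factor signals with the gland cells during development. Methylated DNA immunoprecipitation with sequencing (MeDIP-Seq) pulls down DNA fragments that carry 5-methylcytosine with an antibody, so that reads pile up where methylated CpG sites are dense. In mammals most CpG sites of CpG-poor, gene-poor DNA are methylated but lie far apart and bind little antibody, while gene-rich DNA holds more sites per length and gives more reads. A shift spread thinly over many windows can be missed in single 100 bp windows, each of which holds few reads. The counts of the 100 bp windows of the 20 autosomes were therefore summed in each pool into non-overlapping bins of 10 kb and of 1 Mb that started at the first base of each chromosome. This gave 261882 bins of 10 kb and 2629 bins of 1 Mb from 26187330 autosomal windows, of 27820300 windows in all. The borders of the bins were set by position alone.

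The 6 stromal pools were 3 of the control lineage and 3 of the vinclozolin lineage, from outbred Hsd:Sprague Dawley SD rats at 19 to 21 days of age. To found the vinclozolin lineage, pregnant F0 dams were injected with vinclozolin, a fungicide whose metabolites block the androgen receptor, at 100 mg/kg/day on gestation days 8 to 14, and dams of the control lineage received the DMSO vehicle. The F3 generation was bred from these dams without further treatment, and is the first generation that was not exposed in the womb or as germ cells of an exposed fetus. Each pool combined ventral prostates of several rats, separated by collagenase digestion, settling and centrifugation into stromal and epithelial cells, so that a pool is 1 measurement of a mixture and the stromal fraction can hold some epithelial cells. RNA of the stromal fraction was not analysed here, so that its cell makeup was not checked.

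Counts summed to 57135700, 64361896 and 73948807 in control lineage pools 1, 2 and 3, and to 110076147, 112304623 and 71843106 in vinclozolin lineage pools 1, 2 and 3. The depth thus differed between the lineages, with both of the deepest pools in the vinclozolin lineage. The highest count of a window was 300 in every pool. No library of unprecipitated DNA was analysed here, so that more methylation and more DNA copies that map to a bin cannot be told apart. Where nothing else is said, a difference is the log2 fold change of the vinclozolin over the control lineage from edgeR's quasi-likelihood test after TMM normalization, called at a Benjamini-Hochberg adjusted p under 0.05 over all bins tested. Levels of single bins are given as CPM, the count of a bin scaled by edgeR to the pool's normalized library size.

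At 1 Mb, lineage differences were small in size and spread over the whole genome. Of 2628 bins tested, 1410 (53.7%) were called, 721 (27.4%) higher and 689 (26.2%) lower in the vinclozolin lineage. The median difference of a bin called higher was 0.09 on the log2 scale, a rise of 6.65%, and that of a bin called lower was -0.07, a change of -4.7%. Over all bins, 90% lay between -0.09 and 0.13, with a median of -0.00274 and a median standard error of 0.02. All 3 vinclozolin lineage pools lay above all control lineage pools in 836 bins (31.8%) and below them in 817 bins (31.1%). Of the called bins 48.9% were lower, a balance that depends on the centring, since it was 43.1% without TMM. The calls rested most on vinclozolin lineage pool 2, without which 860 bins were called and 42.2% of them were lower. When the trend with MeDIP level described next was removed, a step added after the data were seen, 803 bins were called, 422 higher (16.1%) and 381 lower (14.5%), of which 566 were shared with the 1410.

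The direction of a 1 Mb bin followed its MeDIP level. Bins were ranked by their mean count per window in the 6 epithelial pools, which are separate libraries and enter no stromal difference. Among the 789 bins of lowest level, 480 were called higher and 6 lower in the vinclozolin lineage, with a median log2 fold change of 0.07. Among the 789 bins of highest level, 33 were called higher and 436 lower, with a median of -0.05. When the bins were split by level into 10 equal groups, the median of the lowest group was 0.09, with 173 bins called higher and 0 lower, and that of the highest group was -0.06, with 10 higher and 140 lower. The medians of the 10 groups fell at each step from the lowest to the highest level, as the plot of 1 Mb bins by MeDIP level shows. The group of lowest level held 5.93%, 5.85% and 5.7% of the binned counts in control lineage pools 1, 2 and 3, and 6.11%, 6.32% and 6.23% in the vinclozolin lineage pools. The 2 lineages did not overlap there.

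**Figure D1:**
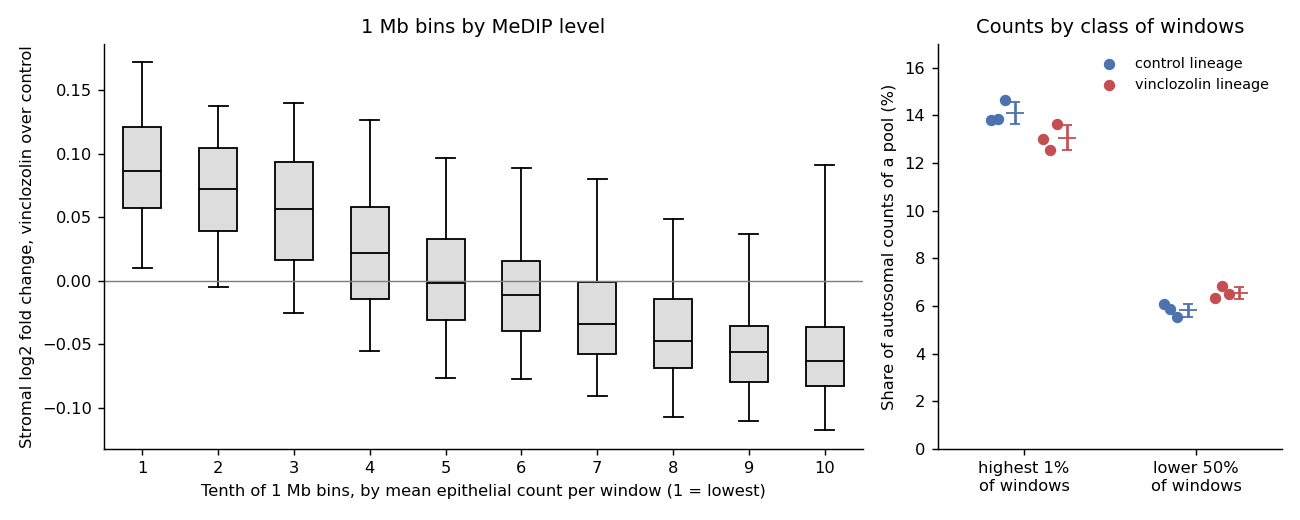
Left, log2 fold change (vinclozolin over control lineage, stromal cells) of 1 Mb bins in 10 equal groups by mean epithelial count per 100 bp window, with boxes for the median and quartiles and whiskers from the 5th to the 95th percentile, and medians that go down from 0.09 to -0.06. Right, share of each pool's autosomal counts (%) in the highest 1% and the lower 50% of windows, 1 point per pool with mean and SD (n = 3), where the vinclozolin lineage pools lie below the control pools in the first class and above them in the second.

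The same shift was seen between strongly and weakly enriched 100 bp windows. The 1% of windows with the highest summed count over the 6 pools held 13.8%, 13.8% and 14.6% of the autosomal counts in the control lineage pools and 13%, 12.6% and 13.6% in the vinclozolin lineage pools. The means were 14.1% ± 0.471 (SD, n = 3) and 13.1% ± 0.529 (SD, n = 3), without overlap. The lower 50% of windows went the other way, with 6.06%, 5.89% and 5.52% in the control and 6.33%, 6.83% and 6.49% in the vinclozolin lineage. For each of these classes the exact two-sided permutation test gave a p of 0.1, which is the smallest that 3 pools against 3 allow. Ranked by the epithelial pools instead, the top 1% held 13.9% ± 0.414 (SD, n = 3) in the control and 12.8% ± 0.505 (SD, n = 3) in the vinclozolin lineage. Between 10 kb bins the shift was not seen at the top, since the 10% of bins with the highest level held 25.1%, 25% and 25.5% of the binned counts in the control and 25.2%, 25.3% and 25.7% in the vinclozolin lineage, with overlap. At the total of the shallowest pool, the share of windows expected to hold no count was 47%, 47.1% and 48.1% in the control lineage pools and 45.4%, 44.4% and 45.6% in those of the vinclozolin lineage. The part of the difference in depth in these shares was not tested. A lineage difference in methylation and a difference in how well the antibody enriched each library cannot be told apart here.

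Between chromosomes, the shares differed little, with log2 ratios of the lineage means between -0.04 and 0.03. Chromosome 2 had 9.44%, 9.43% and 9.37% of the autosomal counts in the control and 9.57%, 9.69% and 9.67% in the vinclozolin lineage. Its pools did not overlap, and the same held for higher shares of chromosomes 4, 11, 13 and 15. Chromosome 12 had 2.7%, 2.7% and 2.77% in the control and 2.69%, 2.63% and 2.64% in the vinclozolin lineage. Chromosomes 7, 10, 16, 17, 19 and 20 were lower without overlap in the same way, and each of the 12 chromosomes had an exact permutation p of 0.1, the smallest possible. Over all autosomes, 27.4% of the 1 Mb bins tested were called higher and 26.2% lower. On chromosome 2, 109 of 267 bins of 1 Mb (40.8%) were called higher and 35 (13.1%) lower. On chromosome 10, 10 of 113 (8.85%) were called higher and 56 (49.6%) lower. Chromosome 12, the autosome with the highest median MeDIP level, had 2 of 53 called higher and 19 lower. With the trend against the level removed, 16.1% of all 1 Mb bins were called higher and 14.5% lower. Chromosome 12 then gave 3 higher and 6 lower with a median of 0.000546. Chromosome 2 kept an excess of 72 higher over 18 lower and chromosome 10 one of 30 lower over 6 higher.

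**Figure D2:**
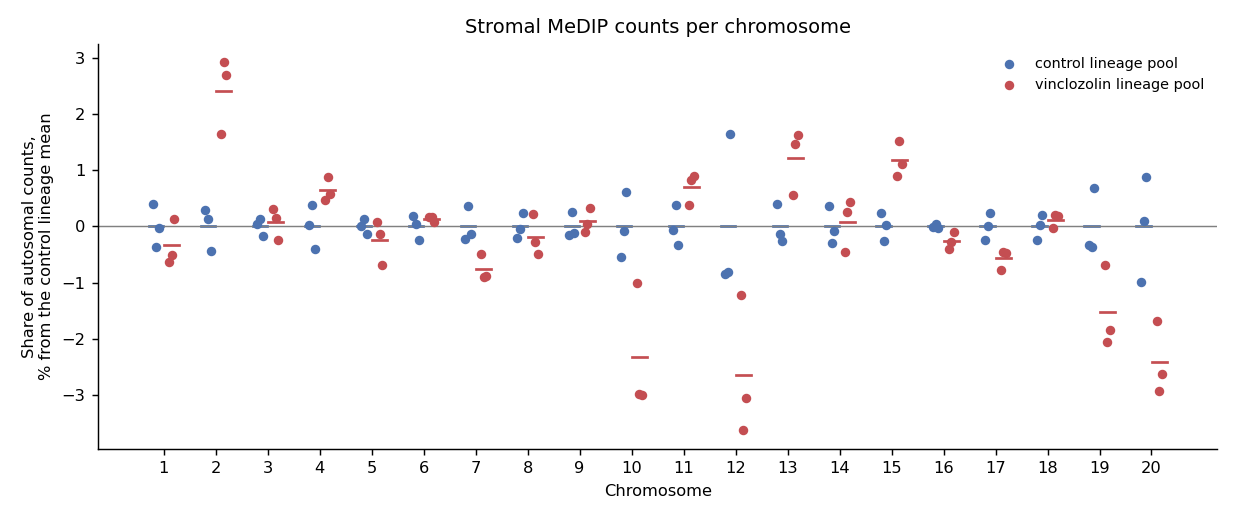
Share of each stromal pool's autosomal counts on each chromosome, as a percentage difference from the control lineage mean of that chromosome, 1 point per pool with horizontal lines for lineage means (n = 3). Chromosome 2 lies highest above and chromosomes 10, 12 and 20 lie lowest below the control mean in the vinclozolin lineage.

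Called 1 Mb bins of 1 direction often lay side by side. Of the 721 bins called higher, 79.5% had a neighbor called the same way, and of the 689 called lower, 76.1%. These shares were 49.8% and 51.2% with the trend removed, and runs of 5 or more bins went from 43 to 8 upward and from 35 to 7 downward. Of the 294 upward runs, 148 were single bins, and 27.4% of all bins were called higher. The longest run covered chr13:1-25000000, where 25 bins in a row were higher by 0.11 to 0.31 on the log2 scale, with a median of 0.15. It held 0.681%, 0.66% and 0.648% of the counts in the control lineage pools and 0.721%, 0.758% and 0.744% in the vinclozolin lineage pools. In each of the 25 bins the pools of the lineages did not overlap, as upward in 31.8% of all 1 Mb bins. The run was chosen as bins called higher in these same pools, so this adds no support. The rise was carried by most of its length, since 1867 of 2413 bins of 10 kb were above 0, although 190 of them were called higher and 5 lower, where 2.22% and 2.1% of all 10 kb bins were. The remaining 89 bins of chromosome 13 had a median of -0.02, with 23 called higher and 28 lower. The rise was not confined to the run, since the bins from 28 to 32 Mb past its start were at 0.15 to 0.17. With the trend removed 18 of the 25 bins were called higher, with a median of 0.08.

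The other long runs of higher bins were chr2:64000001-77000000, with 13 bins and a median of 0.11, and chr4:87000001-99000000, with 12 bins and a median of 0.08. With the trend removed, 7 of 13 and 4 of 12 of their bins were still called higher, with medians of 0.05 and 0.03. These runs had low MeDIP levels, with a median of 12.4 and 14.3 epithelial counts per window, and the chromosome 13 run had one of 13.1. The longest run of lower bins covered chr5:148000001-161000000, with 13 bins between -0.12 and -0.05. It held 0.688%, 0.697% and 0.711% of the counts in the control and 0.674%, 0.65% and 0.648% in the vinclozolin lineage. Next came chr20:3000001-15000000, with 12 bins and a median of -0.1, and chr7:135000001-145000000, with 10 bins and a median of -0.07. The runs of lower bins had high levels, with medians of 23.2, 24.9 and 25 epithelial counts per window. With the trend removed, 7 of 13, 6 of 12 and 5 of 10 bins of these 3 runs were still called lower.

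With the trend removed, the next longest runs upward were chr13:7000001-14000000 and chr13:15000001-22000000, of 7 bins each, both within the chromosome 13 run. The longest was then chr2:1-12000000, 12 bins called higher at a median MeDIP level of 20.3 epithelial counts per window, with 0.526%, 0.516% and 0.506% of the counts in the control and 0.54%, 0.565% and 0.562% in the vinclozolin lineage. Within it, 76 of 1189 bins of 10 kb were called higher and 12 lower, where 2.22% and 2.1% of all 10 kb bins were. Some bins that the study's list of stromal DMRs, made from these same pools, assigns to genes went the other way. The bins of Mctp1 and Adgrv1 hold windows that the list chose as lower. With these taken out, the Mctp1 bin was at -0.22 and the Adgrv1 bins at -0.06 and 0.1. The list also gives RGD1560883 both a higher and a lower region there. The bin of Mctp1, a calcium-binding membrane protein, was at -0.46 and was called lower, and those of Adgrv1, a large adhesion receptor, were at -0.42, called lower, and -0.31, not called.

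The longest runs downward with the trend removed had 6 bins each, at chr1:216000001-222000000, chr10:46000001-52000000 and chr14:77000001-83000000. The first went from 0.237%, 0.241% and 0.24% to 0.233%, 0.222% and 0.223% of the counts, and the last from 0.227%, 0.224% and 0.227% to 0.218%, 0.209% and 0.209%. In all 4 of these longest runs the summed shares of the 2 lineages did not overlap. Since their bins were called in these same pools, this was largely fixed by the choice. On chromosome 1, the bins of Lrp5, a coreceptor of Wnt signaling, and Cd81, a tetraspanin, were called lower at -0.38 and -0.56. Those of Shank2, Naaladl1 and the bin shared by Pygm and Rasgrp2 were also called lower, at -0.52 to -0.44. The study's list chose windows in these bins as lower, so the calls were largely fixed by that choice. With those windows taken out, the Lrp5 and Cd81 bins were at -0.2 and -0.12. The Shank2 and Naaladl1 bins were then at -0.37 and -0.1, and that of Pygm and Rasgrp2 at -0.22. On chromosome 14, the bin of Htt, the huntingtin gene, was called lower at -0.32. That of Slc2a9, a urate transporter, was at -0.15 and was not called. Without their listed windows, also chosen as lower, the Htt and Slc2a9 bins were at 0.03 and 0.00391. On chromosome 10, the bin of Trpv2 was at -0.19 and was not called, and it was at 0.02 without its listed windows.

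**Figure D3:**
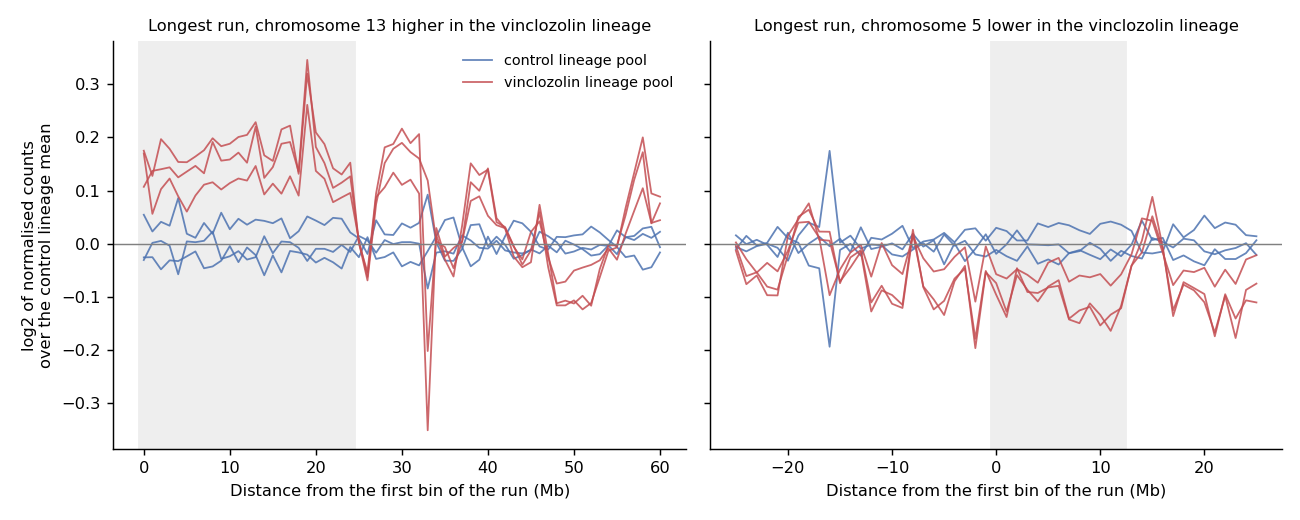
Normalized counts of 1 Mb bins in each stromal pool as log2 over the control lineage mean of the bin, against the distance in Mb from the first bin of the longest run in each direction (shaded), with control lineage pools in blue and vinclozolin lineage pools in red. On chromosome 13 the 3 vinclozolin lineage pools lie above the control pools through all 25 bins of the run, and on chromosome 5 they lie below them in 12 of 13 bins.

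Bins of 1 Mb with the smallest p-values stood out from this broad shift. The smallest adjusted p, 2.66e-07 by edgeR, was that of chr15:65000001-66000000. CPM there were 352, 344 and 336 in the control and 407, 412 and 424 in the vinclozolin lineage, a 1.2-fold difference (log2 0.27 ± 0.02 SE). At chr9:21000001-22000000, 329, 313 and 309 CPM stood against 378, 381 and 386 (log2 0.27 ± 0.02 SE, edgeR adjusted p of 2.66e-07). In both bins every vinclozolin lineage pool lay above every control lineage pool by more than the range within a lineage. Since they were chosen for their p in these same pools, this was largely fixed by the choice. The pools did not overlap upward in 31.8% of all 1 Mb bins.

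The remaining 4 bins of the upward list were chr6:17000001-18000000, chr1:179000001-180000000, chr13:19000001-20000000 and chr6:143000001-144000000, and their log2 fold changes lay between 0.17 and 0.31. The chromosome 13 bin, inside the longest run, had 389, 367 and 370 CPM in the control and 449, 468 and 477 in the vinclozolin lineage, a 1.24-fold difference. The chromosome 1 bin had 568, 538 and 551 against 653, 675 and 689. Its rise was broad at a finer scale too. Of its 99 bins of 10 kb, 91 were above 0, 51 were called higher and 0 lower, against 2.22% of all 10 kb bins called higher, and the 5 bins with the largest rise made up 18.7% of the net gain. In the other 5 bins of the upward list between 68 and 88 of 90 to 99 bins of 10 kb were above 0. The largest difference among called bins was at chr8:10000001-11000000, chosen after its value was seen, with a log2 fold change of 0.34 and 38 of 99 bins of 10 kb called higher. With the trend removed, each of the 6 bins of the list remained called, with log2 fold changes of 0.16 to 0.35. The study's list of stromal DMRs, which was made from these same pools, assigns no gene with a standard symbol to any of them.

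The bins with the smallest p-values among those that were lower had smaller differences, between -0.17 and -0.11. At chr4:146000001-147000000 the CPM were 532, 525 and 525 in the control and 475, 457 and 473 in the vinclozolin lineage (log2 -0.17 ± 0.02 SE, edgeR adjusted p of 3.89e-05). This fall was partly local, since 33 of its 99 bins of 10 kb were above 0 and 5 of them made up 66.3% of the net loss. Without the 1% of windows with the highest counts its log2 fold change was -0.1, and it was still called. The bin chr14:80000001-81000000, in which the study's list assigns Acox3, a peroxisomal acyl-CoA oxidase, had 459, 462 and 469 against 430, 412 and 415. The 10 kb bin of Acox3 was called lower at -0.41. The bin chr7:11000001-12000000, with Sppl2b, an intramembrane protease, and Lsm7, an RNA-processing factor, by the same list, had 485, 493 and 488 against 451, 422 and 429. The 10 kb bin that these 2 genes share was called lower, also at -0.41. It was lower over much of its length, with 20 of 100 bins of 10 kb above 0 and 20 called lower, the highest number in any 1 Mb bin, against 2.1% of all 10 kb bins called lower. The other bins were chr7:115000001-116000000, chr6:103000001-104000000 and chr6:10000001-11000000, and in the last of these the list assigns Atp6v1e2, a subunit of the vacuolar proton pump, whose 10 kb bin was called lower at -0.36. The list chose windows in these 10 kb bins of genes as lower, so their calls partly reflect that choice. With those windows taken out, the bin of Acox3 was at -0.49. That of Sppl2b and Lsm7 was then at -0.28 and that of Atp6v1e2 at -0.3. The 6 lower bins of 1 Mb also remained called with the trend removed, at -0.13 to -0.07.

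**Figure D4:**
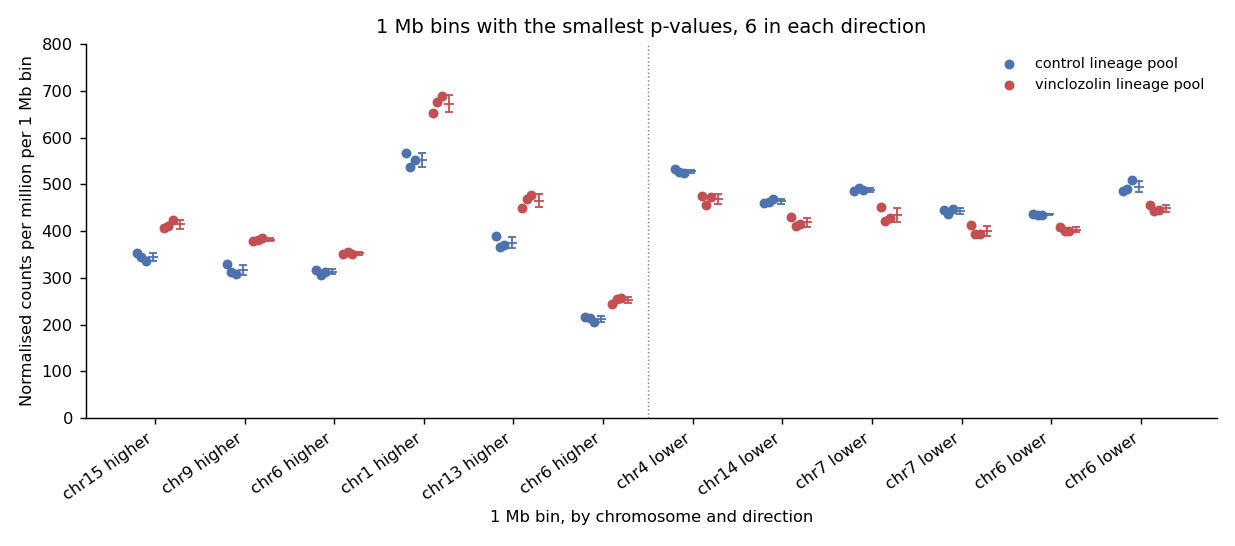
CPM of the 1 Mb bins with the smallest p-values, 6 called higher and 6 called lower in the vinclozolin lineage, 1 point per stromal pool with mean and SD (n = 3). In each of the bins the control and vinclozolin lineage pools do not overlap, with rises from 0.17 to 0.31 and falls from -0.17 to -0.11 on the log2 scale. The bins were chosen for their p in these same pools, so the lack of overlap was largely fixed by the choice. Of all 1 Mb bins, 31.8% did not overlap upward and 31.1% downward.

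At 10 kb, fewer bins passed and the differences were larger. Of 258054 bins tested, 11127 (4.31%) were called, 5717 (2.22%) higher and 5410 (2.1%) lower. The median of the bins called higher was 0.4 on the log2 scale, a rise of 32.2%, and that of the bins called lower was -0.37, a change of -22.6%. Pools did not overlap in 29310 bins that were higher (11.4%) and in 27876 that were lower (10.8%). The spread between pools of a lineage, as edgeR's common biological coefficient of variation, was 8.27% at 10 kb and 1.93% at 1 Mb. The number of calls at 10 kb rested on single pools more than at 1 Mb. It was 1900 without vinclozolin lineage pool 2, 3364 without vinclozolin lineage pool 3, 6217 without control lineage pool 2 and 6727 without control lineage pool 3. DESeq2 called 5679 bins, 57.1% of them lower. With the trend removed, 5416 bins (2.1%) were called higher and 4903 (1.9%) lower, of which 8722 were shared with the 11127.

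The 2 directions differed in how they were laid out. In the group of the 10% of 10 kb bins with the highest MeDIP level, 1748 were called higher and 1750 lower, 13.6% of that group. In the group of lowest level 296 were called higher and 54 lower, 1.36% of that group. Of all 10 kb bins 4.31% were called. A bin called higher had a median of 73% of its covered 100 bp windows above the control lineage mean, and the 10 windows with the largest rise made up a median of 54.6% of its net gain. A bin called lower had a median of 61% of its covered windows below the control mean, and its 10 windows with the largest fall made up 77.3% of the net loss. In 1503 of the 5410 bins called lower and in 79 of the 5717 called higher, 10 windows held over 90% of the net difference. The 10 windows were picked for the largest difference, so a large share was partly built in. These shares were not taken for bins that were not called, and the part of the difference in depth in them was not tested. Runs reached 12 neighboring bins upward and 6 downward, and 21 runs upward and 3 downward had 5 bins or more. Bins at a distance of 10 kb from a bin called higher had a median log2 fold change of 0.11, with 9.43% of them also called higher. At 1000 kb the median was 0.04, with 3.81% also called higher, where 2.22% of all 10 kb bins were. For bins called lower the medians were -0.07 at 10 kb, with 6.75% also called lower, and -0.03 at 1000 kb, with 3.35%. Of all 10 kb bins 2.1% were called lower. Of the bins called higher 58.6% lay in a 1 Mb bin that was itself called higher, where 27.4% of 1 Mb bins were. Of the bins called lower 57.6% lay in a 1 Mb bin called lower, where 26.2% were.

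The longest upward run at 10 kb was chr13:19610001-19730000, 12 bins in a row with log2 fold changes between 0.33 and 0.95. Within it lay chr13:19640001-19650000, where CPM were 3.35, 3.03 and 3.43 in the control and 5.79, 6.6 and 6.69 in the vinclozolin lineage, a 1.94-fold difference (log2 0.95 ± 0.1 SE, edgeR adjusted p of 1.26e-10). Among its 100 windows, 83 were higher. The smallest adjusted p, 7.61e-12 by edgeR, was that of chr1:179670001-179680000, with 5.01, 5.08 and 4.77 against 8.67, 8.89 and 9.85 CPM. Both bins lay within 1 Mb bins of the upward list.

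The same held for chr6:143120001-143130000, which had 4.81, 4.09 and 3.81 CPM in the control and 7.64, 7.91 and 7.51 in the vinclozolin lineage. The bin chr7:21700001-21710000, in a run of 8 bins, had 3.17, 2.79 and 3.13 against 5.64, 6.24 and 6.03, a 1.97-fold difference. At chr14:33210001-33220000 the levels were higher in both lineages, with 14, 14.3 and 14.1 against 20.2, 21.2 and 24.3. At chr3:169270001-169280000 they were 2.79, 2.87 and 2.24 against 4.48, 5.44 and 5.58. In each of the 6 bins named upward at 10 kb between 81 and 87 of 100 windows were higher and the 10 windows with the largest rise held 26.5 to 37.4% of the net gain. The chromosome 14 bin was alone among them in lying in a 1 Mb bin that was not called, with a log2 fold change of 0.02 over the 1 Mb.

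The bins with the smallest p-values among those called lower were mostly single bins. The bin chr18:13480001-13490000, which the study's list assigns to Asxl3, a protein that works with Polycomb complexes, had 8.07, 8.58 and 8.24 against 5.33, 4.58 and 4.33, a 0.574-fold level. The bin chr3:121320001-121330000, assigned to Mertk, a receptor tyrosine kinase for the clearance of dying cells, had 11, 11.9 and 12.2 against 8.37, 6.85 and 6.19. All 3 vinclozolin lineage pools were lower than all control lineage pools in both of them, as in 10.8% of all 10 kb bins. Both were chosen for their p in these same pools, so this was largely fixed by the choice.

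Another 3 bins had no gene assigned by the list, and they were chr1:148460001-148470000, chr9:10500001-10510000 and chr1:44880001-44890000. The first had 26, 27.5 and 25.1 against 17.3, 15.5 and 17.7 CPM and was followed by a bin at -0.61 that was also called. Over the 6 lower bins, between 42 and 68 of 100 windows were lower, although 45 windows alone held counts in the first bin on chromosome 1, and the 10 windows with the largest fall held 58.5 to 102.2% of the net loss, a value over 100 meaning that the rest of the bin was higher. Without the 1% of windows with the highest counts, 3 of the 6 were no longer called, among them the bin on chromosome 9 and the second on chromosome 1, at -0.33 and -0.19. The calls of these 3 thus rested on strongly enriched windows. The other lower bins and the 6 named bins called higher remained called in that setting. Over all bins, 4860 were then called higher and 3187 lower.

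**Figure D5:**
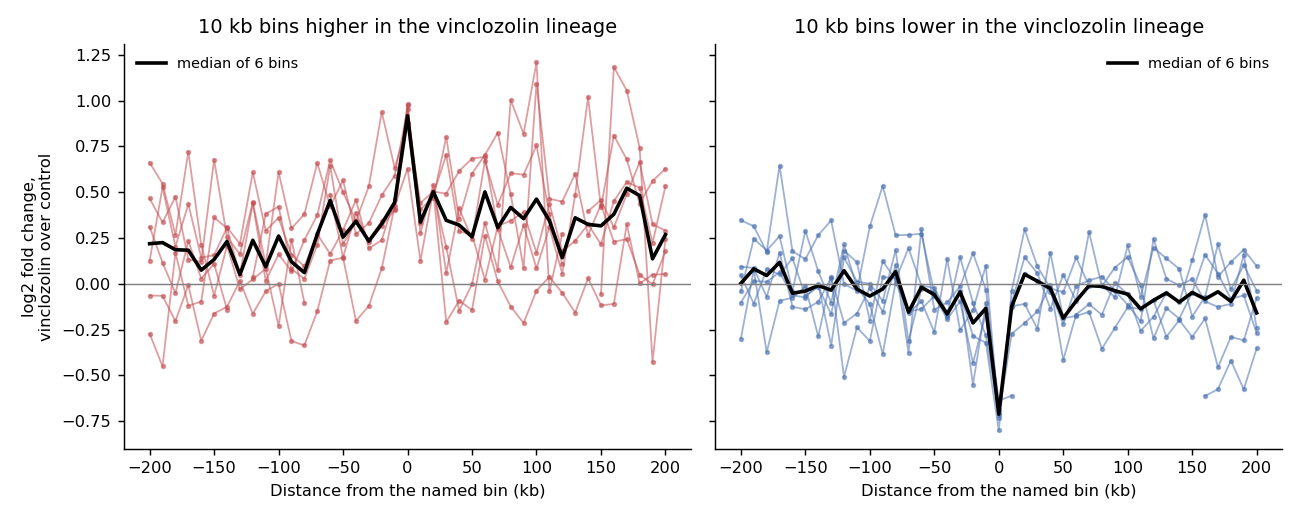
Log2 fold change (vinclozolin over control lineage) of 10 kb bins against the distance in kb from each of the named bins, 1 line per named bin (6 higher in red, 6 lower in blue, gaps where a neighbor was not tested) and the median in black. Around the higher bins the median stays above 0 out to 200 kb on both sides, at 0.22 and 0.27, while around the lower bins it is -0.13 and -0.12 at 10 kb and 0.00232 and -0.16 at 200 kb.

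Genes were reached through the study's list of stromal DMRs, which gives positions and gene symbols on the same assembly. The list was drawn from these 6 pools and this contrast, so its bins are described and support nothing. Where the windows of a region were lower (1105 regions), the median log2 fold change was -0.81 in those windows, -0.32 in the whole 10 kb bin and -0.06 in the rest of the bin with those windows taken out. In the 1 Mb bins around them the median was -0.05. Where the windows were higher (108 regions), the medians were 0.84, 0.27, 0.12 and 0.02. Since the windows were chosen for their difference, a smaller value in the rest of the bin was fixed by that choice. The rest of the bin had the same sign in 62.9% of the lower and 76.9% of the higher regions.

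Among these, 24 genes of transcription control, DNA methylation, matrix and signaling were picked by name, in 27 bins of 10 kb, with earlier results known and from lower regions of the list, which also holds higher regions, so their shared direction reflects the choice. All 27 bins had a log2 fold change below 0, 22 were called lower and 5 were not called, with a median of -0.39, where 2.1% of all bins were called lower. Of all 1105 lower regions of the list, which was chosen for such differences, 56.2% lay in a bin called lower. Dnmt3a, a DNA methyltransferase that sets new methylation, had 8.47, 8.59 and 9 CPM in the control and 7.03, 6.46 and 6.39 in the vinclozolin lineage in chr6:28330001-28340000 (log2 -0.39 ± 0.08 SE, edgeR adjusted p of 0.00196). The rest of this bin was at -0.16 and the surrounding 1 Mb at -0.06, which was called lower. Gli2, a transcription factor of hedgehog signaling that stromal cells use to receive epithelial signals, had 5.48, 4.99 and 4.67 against 3.65, 3.87 and 3.66 in chr13:34870001-34880000. Its 1 Mb bin was not called, at 0.02.

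Pax2, a paired-box factor of urogenital development, was lower in both of its bins, at -0.33 and -0.46, and in its 1 Mb bin, at -0.1. Sdc4, a heparan sulfate proteoglycan that binds growth factors, had 20.7, 22 and 20.6 against 15.4, 13.7 and 13 CPM in chr3:162240001-162250000 (log2 -0.58 ± 0.07 SE), with the rest of the bin at -0.21. Maml2, a coactivator of Notch signaling, was lower in both bins, at -0.34 and -0.51, but they lay in neighboring 1 Mb bins of which 1 was called higher, at 0.09, and 1 lower, at -0.06. Both Maml2 bins hold windows that the list chose as lower. With those windows taken out, the one in the rising 1 Mb bin was at -0.08 and the other at -0.39.

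Bcl2, which protects cells from apoptosis, had 3.4, 3.4 and 3.84 against 2.57, 2.35 and 2.48 in chr13:26750001-26760000, past the end of the chromosome 13 run, and its 1 Mb bin was lower, at -0.06. Nfatc1, Stat6, Bcl11b, Ikzf1 and both bins of Foxp2, all transcription factors, were called lower at -0.54 to -0.37. The bins of the cell surface and matrix genes Itga9, Col9a1 and Sema6d were called lower at -0.44 to -0.36. Nrip1, a corepressor of nuclear receptors, was at -0.29 with the rest of its bin at 0.13. Another 5 genes had a bin that did not pass at 10 kb: Fli1 at -0.16, Klf12 at -0.21, Tfeb at -0.16, Spon1 at -0.29 and Zbtb38 at -0.12. For Fli1, the rest of the bin was at 0.12.

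Genes of the list that lay within the long runs of lower bins did not all fall. Their bins hold windows chosen for a difference, so the directions partly reflect that choice. In the longest, on chromosome 5, the bins of Pafah2, an enzyme that breaks down platelet-activating factor, and Fhad1 were called lower, at -0.25 and -0.24. Those of Man1c1 and Tmem50a were at -0.19 each and that of Ifnlr1, an interferon receptor subunit, was at 0.18 with all vinclozolin lineage pools above the control pools, and none of the 3 was called. In the chromosome 7 run, the bin of Dhh, the desert hedgehog ligand, had 30, 33.9 and 33.1 against 26.1, 22.5 and 24.6 CPM (log2 -0.41 ± 0.07 SE, edgeR adjusted p of 0.000145). Pou6f1, a POU-domain factor, was at -0.48 and Twf1, an actin-binding protein, at -0.55, both called lower. Nell2 was at 0.04 and Ano6 at -0.22, and neither was called. At Ifnlr1 and Nell2 the windows of the list were higher, at 0.7 and 0.51. The rest of these bins was at -0.03 and -0.15. In the chromosome 20 run, which holds the RT1 genes of the major histocompatibility complex, RT1-DOb was at -0.29 and the bin shared by RT1-CE1, RT1-CE4, RT1-CE6 and RT1-CE7 at -0.19, neither of them called. Reads of these RT1-CE copies may be split between them. Specc1l and Dip2a, at -0.41 and -0.4, were called lower, and Pde9a was at -0.00592.

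The lineage difference in stromal cells was compared with that in epithelial cells, whose pools came from the same groups of rats and are therefore not independent samples of the lineages. In epithelial cells 97 bins of 1 Mb (3.69%) and 511 bins of 10 kb (0.198%) were called by the same test. The test of the difference between the cell types, an interaction of lineage and cell type over all 12 pools in edgeR, called 0 bins (0%) at 1 Mb, with 582 at an unadjusted p under 0.05, and 0 at 10 kb, with 17431. Both cell types were prepared from each group of rats, but the sources used here do not say that pool numbers match between them. When pools of the same lineage and number were taken as a block, the interaction called 473 bins of 1 Mb (18%) and 0 of 10 kb, with 17311 of the latter at an unadjusted p under 0.05. Of these 473 bins, 228 were called higher and 172 lower in stromal cells, where 27.4% and 26.2% of all 1 Mb bins were. In 390 the stromal difference was the larger in its own direction. Over the 473 bins the median size of the log2 fold change was 0.09 in stromal and 0.03 in epithelial cells. The bins were picked for a difference between the cell types, so a gap in size was partly built in. The long upward runs on chromosomes 13, 2 and 4 had 12 of 25, 7 of 13 and 3 of 12 such bins. The long downward runs on chromosomes 5, 20 and 7 had 1 of 13, 0 of 12 and 2 of 10, where 18% of all 1 Mb bins were called.

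The bins with the smallest p-values had the same sign in both cell types. The share of all bins with the same sign is not given here. In the 6 bins of 1 Mb with the smallest p-values upward, the epithelial log2 fold changes were 0.13 to 0.27. All 6 were called in epithelial cells too, where 3.69% of all 1 Mb bins were. In the 6 downward bins the epithelial values were -0.15 to -0.00379 and 2 were called, with interaction adjusted p of 0.135 to 0.688 by edgeR without the block. At chr6:10000001-11000000, chr7:115000001-116000000 and chr4:146000001-147000000 they were -0.00379, -0.01 and -0.03, each with an SE of 0.03, so that their sign was not resolved. With the block, the interaction was called in 1 of the 6 upward bins, chr6:143000001-144000000, at an edgeR adjusted p of 0.0187. It was also called in 4 of the 6 downward bins, those on chromosomes 4 and 14, chr7:115000001-116000000 and chr6:10000001-11000000, at edgeR adjusted p of 0.0121 to 0.0245, where the epithelial values were -0.05 to -0.00379. At 10 kb the 6 higher bins were at 0.27 to 0.95 in epithelial cells, of which 3 were called. The 6 lower bins were at -0.62 to -0.28, of which 1 was called, where 0.198% of all 10 kb bins were called in epithelial cells. The chromosome 13 bin at 19640001 had 0.95 in both cell types. The bin of Mertk was at -0.71 in stromal and -0.28 in epithelial cells, and that of Asxl3 at -0.8 and -0.47, and neither gene's bin was called in epithelial cells.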

How the data were processed

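The authors sequenced MeDIP DNA of 12 pools, 6 of them stromal, trimmed reads with Trimmomatic, checked them with FastQC, mapped them to Rnor_6.0 with Bowtie2 and SAMtools, and deposited counts per 100 bp window made with MEDIPS, in which a read counts in each window it covers. Tool versions and the handling of duplicate reads are not given in the sources used here. The 12 RPKM columns, the authors' lineage means and their edgeR fold changes and p-values were not used. Their DMR list served for positions and symbols alone.

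Counts were summed per bin (Python 3.11.15, pandas 2.3.3). Bins with a summed count under 100 (10 kb) or 10000 (1 Mb) were left out, which removed 3828 and 1 bins. Lineages were compared with edgeR 4.0.16 in R 4.3.3 (glmQLFit, robust, TMM factors of 0.996 to 1.003), after the scripts were tested on simulated data. The text names, in each direction and at each size, the 6 bins with the smallest p, of which 1 at 10 kb enters counts and ranges but is not reported here by itself. The trend was removed with loess offsets (span 0.3) on the epithelial level. Alternatives included DESeq2 1.42.0, other size factors and filters, and leaving out each pool. Bins, gene lists and tests were chosen with earlier results of these data known.

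Each group of rats gave both cell types per the methods, but no source used here says that pool numbers match between them. Deviations from group means of stromal and epithelial pools of 1 lineage and number correlated at 0.216 to 0.613 over 1 Mb bins but at -0.03 to 0.02 over 10 kb bins. Those of 1 lineage but different number correlated at -0.53 to 0.24 and at -0.03 to 0.04. Nothing ties control and vinclozolin pools of the same number, whose correlations were -0.55 to 0.11 and -0.03 to -0.00158. Pools are the replicates, and edgeR p-values set the lineage difference against the spread between pools, estimated in part over all bins. Variation between single rats or litters was not measured. Cell type markers and pathway genes were not placed in bins, since no annotation of the build was used here.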

Additional observations from a re-analysis of the deposited data

Results flagged for a closer look

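The lineage difference of 473 bins of 1 Mb differed between stromal and epithelial cells by the edgeR interaction test with the pool number within a lineage as a block, and 0 did without the block. Outside the autosomes, chromosome X held a mean of 3.15% of all counts in the vinclozolin lineage stromal pools against 2.97% in the control pools. Its shares were 3.01%, 2.98% and 2.94% in the control and 3.12%, 3.19% and 3.13% in the vinclozolin lineage, without overlap. Chromosome Y held a mean of 0.13% against 0.122%, from 0.124%, 0.121% and 0.121% to 0.128%, 0.132% and 0.13%. Each of these 2 comparisons had an exact two-sided permutation p of 0.1, the smallest that 3 pools against 3 allow, so neither can pass a threshold of 0.05.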

How the results depend on the processing

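The 24 named bins kept their direction and call in each alternative run, except that leaving out the top 1% of windows ended the call of 3 of them, among them chr9:10500001-10510000, at -0.33, and chr1:44880001-44890000, at -0.19. In that setting chr4:146000001-147000000 was at -0.1. Removing the trend put chr6:143000001-144000000 at 0.16, chr6:103000001-104000000 at -0.07 and chr6:10000001-11000000 at -0.09. The count of 1 Mb calls ranged from 860 to 1583 when each pool was left out, lowest without vinclozolin lineage pool 2, and was 803 with the trend removed, an alternative chosen after seeing the data. The share of lower bins among 1 Mb calls was 43.1% without TMM, 45% with a replicate block, which called 1190 bins, and 42.2 to 49% with each pool left out. At 10 kb, DESeq2 called 5679 bins, a threshold of adjusted p under 0.1 gave 19815, and leaving out each pool gave 1900 to 11446. The share of lower bins at 10 kb was 45.2% without TMM, 50.2% with median-of-ratios size factors, 57.1% with DESeq2, 43.6% with a stricter filter, 39.6% without the top 1% of windows, 47.5% with the trend removed and 46.2 to 56.2% with each pool left out. The replicate block between lineages, whose numbers do not pair the pools, called 11024 bins at 10 kb. The replicate block of stromal and epithelial pools by number in the interaction gave 473 bins at 1 Mb. The cause of these changes was not tested. Lineage differences in the shares of window classes kept their direction when windows were ranked by the epithelial pools. With the trend removed, the median 1 Mb log2 fold change was 0.01 on chromosome 2 and 0.000546 on chromosome 12. By the main fit these medians were 0.03 and -0.05. With 3 pools a lineage and no library of unprecipitated DNA, a shift of a few percent over 1 Mb cannot be told apart from a difference in enrichment between libraries.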
